A study of Anas platyrhynchos with 6 samples.

Results

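NOX4 is the gene of a NADPH oxidase that makes hydrogen peroxide, and this account follows the circular RNAs that its transcript gave in the breast muscle of duck embryos. The members were all circular RNAs listed under the symbol NOX4 (12) and those listed under an Ensembl ID with the same gene description (3, ENSAPLG00000012543). Listings with the same chromosome, end and strand and starts 1 base apart were taken as 1 junction, with the larger count in each library. This gave 13 NOX4 circles of 14917 junctions in the whole series (15 of 16631 as listed). NOX4 was chosen by its back-splice counts, known to be higher at the later stage, so its levels by stage are a description, without a test.

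The tissue was breast muscle of female Shanma duck embryos, a laying breed of one genetic background, without any treatment. A group of 3 libraries came from embryonic day 13 (E13) and a group of 3 from day 19 (E19). According to the study, most myoblasts were still undifferentiated at E13 and nearly all had differentiated by E19. The authors removed ribosomal RNA, digested linear RNA with RNase R and counted reads across back-splice junctions, the sites where a downstream exon end is joined to an upstream exon start. The study describes muscle of 3 female embryos at E13 and E19, while the labels do not name the embryo of a library. Any p-value measures the spread between these libraries alone.

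NADPH oxidases carry electrons from NADPH across a membrane to oxygen. NOX4 is known from mammals as a member of the family that is active without the cytosolic activator subunits. It needs the membrane partner encoded by CYBA and releases mostly hydrogen peroxide. In mammals it is found in kidney, vessel wall, fibroblasts and muscle, its mRNA is raised by TGF-beta, and its peroxide can oxidise calcium release channels of muscle. A circular RNA forms when the spliceosome joins exons backwards. Its count tells how often that junction was sequenced and not how much of the mRNA or the enzyme was present, neither of which was measured here.

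The libraries held 36506 to 58647 back-splice reads at E13 and 49587 to 69736 at E19 with each junction taken once, from 24558167 to 27857433 mapped reads each. Circles of muscle fibre genes were found for 8 of 14 genes of a marker list, among them LDB3, DMD and ACTN2, while TTN, NEB and CKM had none. The myoblast genes MYOD1, MYF5 and MYOG had no circle at either stage. The state of the cells that the study describes could thus not be checked with them. By back-splice reads summed over each parental gene, NOX4 ranked 120th of 4129 genes at E19, against 854th at E13.

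NOX4 circles had few reads at E13 and many more in every E19 library. Among the genes with reads, NOX4 still ranked 828th of 2163 in E13 replicate 1 and 498th of 1940 in E13 replicate 2. The 3 E13 libraries had 8, 11 and 0 NOX4 reads. The 3 E19 libraries had 74, 70 and 79. Every E19 library thus stood above every E13 library, with a wide gap between them. In RPM, the back-splice reads for every 1000000 mapped reads, the E13 libraries had 0.287, 0.448 and 0 and the E19 libraries 2.77, 2.68 and 2.86. The mean was 0.245 ± 0.227 (SD, n = 3) at E13 and 2.77 ± 0.0874 (SD, n = 3) at E19.

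E13 replicate 3, with no NOX4 read, was not the shallowest library, since it held 47191 back-splice reads and replicate 2, with 11 NOX4 reads, held 36506. A count of 0 allows up to 0.114 RPM there (3 reads, counting error only). As a share of back-splice reads the 3 E19 libraries had 12.7, 10.0 and 15.9 NOX4 reads per 10000, against 1.36, 3.01 and 0 at E13, so the order of the stages did not rest on the scale.

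Pooled over the stage, 19 reads became 223, an 11.5-fold higher rate per mapped read (95% counting interval 7.18 to 19.4, which leaves out the spread between libraries). The edgeR fit over all parental genes put the log2 change at 3.48 (SE 0.521). The median over the 1836 genes tested was 0.24, and 56 genes had a larger fitted change. Without E13 replicate 2, which holds most of the E13 reads, the log2 change was 4.20. Without E13 replicate 3, which holds none, it was 2.90. Scaled to the sum of back-splice reads, the NOX4 change was 3.19 and the median -0.04. In the same fit 50 genes (2.72%) differed at an adjusted p under 0.05, 33 of them higher at E19 (1.8%) and 17 lower (0.926%), and scaling to the sum of back-splice reads gave 19 higher and 26 lower, DESeq2 19 and 18. Every E19 library stood above every E13 library in 10.4% of the genes tested, and 58.8% had a higher fitted value at E19. Since the gene was picked for this contrast, nothing is read from its place in it. In bulk tissue, fewer cells of a type and less RNA per cell cannot be told apart.

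**Figure D1:**
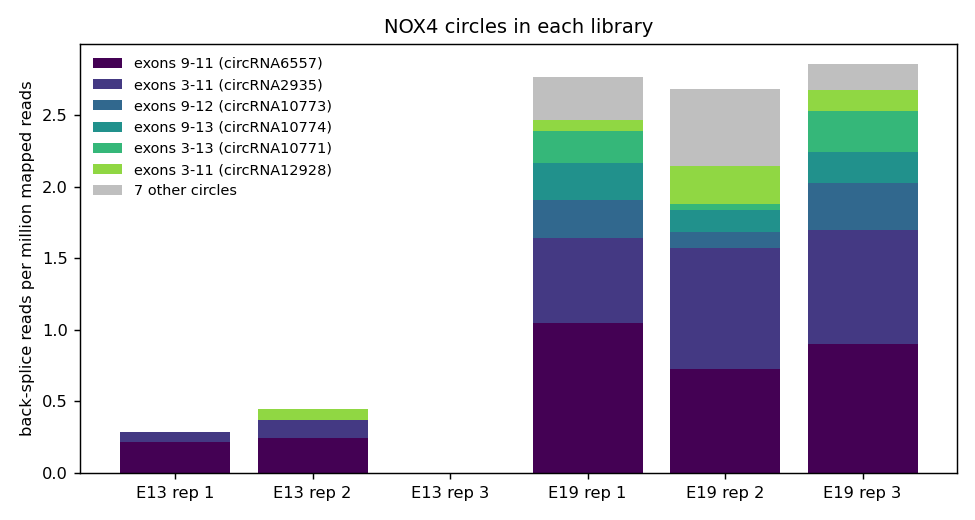
NOX4 back-splice reads for every 1000000 mapped reads (RPM) in each library (vertical axis, linear from 0), stacked by circle, with the 6 circles of at least 10 reads in colour and the other 7 in grey. The E13 libraries hold 8, 11 and 0 reads and the E19 libraries 74, 70 and 79, and 3 of the coloured circles appear at E19 only.

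The 13 circles use 6 different starts and 7 different ends between exons 3 and 17, as the files number the exons of transcript ENSAPLT00000038844. Exon numbers given for a second transcript, ENSAPLT00000013095, were raised by 1 to match that numbering. Where intron positions stood in place of exon numbers, the exons were inferred from a shared end and the exon count. The circles lie on the plus strand of chromosome 1, in an Ensembl duck genome (build not given in the sources used here), and positions are printed as the files give them. All are of the exonic type. Exons 1 and 2 were in no circle. A gene had a median of 2 circles, and 123 of 4129 genes (2.98%) had 13 or more.

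The circles span 2079 to 88820 bases of the genome (median 19330), against a median of 6818 for all 11341 exonic junctions. They hold 2 to 14 exons, with a median of 5 against 3. Circles of 8 exons or more were 5 of 13 (38.5%) for NOX4 and 9.51% of all exonic junctions. Deposited sizes run from 202 to 1364 bases (median 538, against 453 for all). These sizes are built from the annotated exons between the ends, since the reads show the junction and not what lies inside it, and they appear to count 1 base too many for each exon.

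**Figure D2:**
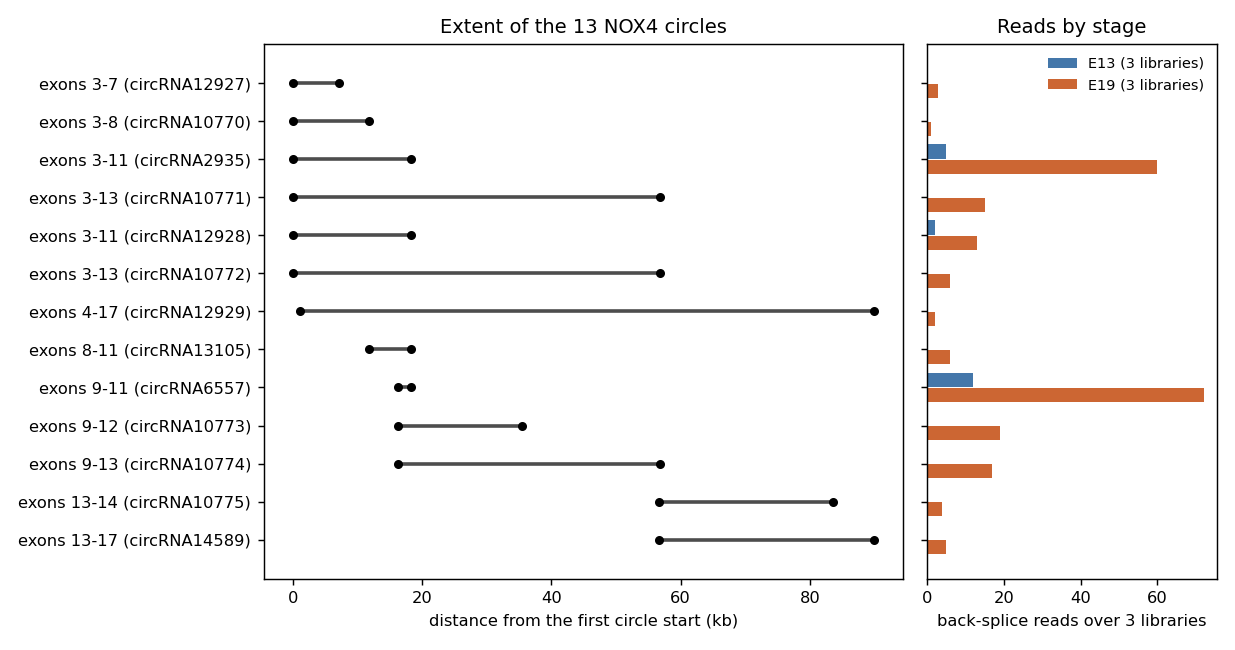
Left, the extent of each of the 13 NOX4 circles from its start to its end, as distance in kb from the first start; right, back-splice reads summed over the 3 libraries of each stage. The circle of exons 9 to 11 is the shortest span and has the most reads (12 at E13, 72 at E19), and only 3 circles have E13 reads.

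The most read circle joins the end of exon 11 to the start of exon 9 (circRNA6557, also listed as circRNA3386, 175067224 to 175069303, 457 bases as deposited). It had 6, 6 and 0 reads at E13 and 28, 19 and 25 at E19, so the stages did not overlap. The pooled rate was 5.87-fold higher at E19 (counting interval 3.16 to 11.9). The 6 reads of E13 replicate 1 stand under circRNA3386 and the 6 of replicate 2 under circRNA6557, and at E19 all reads stand under circRNA6557. The listings of a junction often differ in this way. Of 5994 library values with reads in either listing of a junction with 2 listings, 51.7% had reads in both.

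Next came the circle of exons 3 to 11 (circRNA2935, 175051021 to 175069303, 933 bases as deposited). Its reads were 2, 3 and 0 at E13 and 16, 22 and 22 at E19. The pooled rate was 11.7-fold higher (counting interval 4.76 to 37.5). The fitted log2 change of 3.45 became 4.19 without E13 replicate 2 and 2.89 without E13 replicate 3. This circle and that of exons 9 to 11 share their end, and together they held 59.2% of the 223 E19 reads and 17 of the 19 at E13.

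A near copy of the larger circle starts 4 bases further on, at 175051025, and the files assign it to another transcript, ENSAPLT00000013095 (circRNA12928, also listed as circRNA6736). It had 0, 2 and 0 reads at E13 and 2, 7 and 4 at E19. Here the stages touch at 2 reads. Its fitted log2 change of 2.42 has an SE of 2.31 and rests on 2 E13 reads. It was 5.17 without E13 replicate 2 and 1.89 without E13 replicate 1. Over all circles the upstream start of exon 3 had 79 E19 reads and the start 4 bases on had 19. At E13 they had 5 and 2. Both starts were thus in use at both stages, and the upstream start had more reads in each library with any.

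The following 3 circles had reads in every E19 library and in no E13 library. Their E19 rates were set against a floor of 3 reads over all of E13. The counting error of the E19 reads is left out of these ratios, so they are not strict lower bounds. That of exons 9 to 12 (circRNA10773, 175067224 to 175086554) had 7, 3 and 9 reads, 6.20-fold the floor. That of exons 9 to 13 (circRNA10774, 175067224 to 175107789) had 7, 4 and 6, 5.55-fold the floor. That of exons 3 to 13 (circRNA10771, 175051021 to 175107789) had 6, 1 and 8, 4.89-fold the floor. Reads in all 3 E19 libraries and none at E13 were seen in 2.05% of the 3608 junctions with at least 10 reads.

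The other 7 circles had 1 to 6 reads each, 27 in all, every one at E19. The circle of exons 3 to 13 from the start 4 bases on (circRNA10772) had 3, 3 and 0. The remaining 6 were seen in 1 library each, with 21 reads between them. E19 replicate 2 alone held those of exons 8 to 11 (6 reads), 3 to 7 (3 reads) and 4 to 17 (2 reads). E19 replicate 1 alone held exons 13 to 14 (4 reads) and 3 to 8 (1 read), and replicate 3 exons 13 to 17 (5 reads). These single sightings do not show that a library lacked the circle.

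Among the 6 NOX4 circles with at least 10 reads, 5 had every E19 library above every E13 library, against 9.65% of all 3608 such junctions. By the edgeR fit 1.16% of the junctions passed (0.776% higher and 0.388% lower), and 58.1% had a higher fitted value at E19. These were 28 higher and 14 lower junctions, against 14 and 18 when scaled to the sum of back-splice reads and 39 and 34 with DESeq2. The contrast chose the gene, so these shares are no result about the circles. At E19 the set was shared between the libraries: 6 circles were in all 3 of them and held 196 of 223 reads (87.9%). The libraries had 9, 10 and 7 NOX4 circles at E19 and 2, 3 and 0 at E13. Within E19 the library with the most NOX4 reads had the fewest circles.

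Exons 9 to 11 lay within the circles that held most NOX4 reads. They were spanned by 9 of the 13 circles, by all 19 reads at E13 and by 210 of 223 at E19 (94.2%, 95% Wilson interval 90.3 to 96.6). By library the E19 shares were 93.2%, 95.7% and 93.7%, close to each other. Exons 3 to 7 were spanned by fewer reads, 36.8% at E13 and, for exons 4 to 7, 44.8% at E19, which is within the E13 interval for circles that start at exon 3 (19.1 to 59.0%). Exon 9, the start of 3 circles, opened 108 E19 reads (48.4%) and 12 E13 reads (63.2%).

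The ends of the circles were more varied in the E19 reads, which were also more numerous. All 19 E13 reads ended at exon 11, with 8 in replicate 1 and 11 in replicate 2. At E19 the same end had 46 of 74, 54 of 70 and 51 of 79 reads, or 62.2%, 77.1% and 64.6%. The rest, 72 of 223 (32.3%), came from 9 circles that end elsewhere, mainly at exon 13 (38 reads) and exon 12 (19 reads). Circles that span exon 13 had 20, 10 and 19 reads in the E19 libraries, or 27.0%, 14.3% and 24.1%, and none of the 19 at E13. With 19 reads, a count of 0 allows a share of up to 15.8% at E13 (counting error only). No single E19-only circle reached that share at E19, where the most read of them had 8.52%, so whether any of them was absent at E13 could not be seen at this depth. The ends beyond or before exon 11 were grouped after their values were seen and were not tested.

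**Figure D3:**
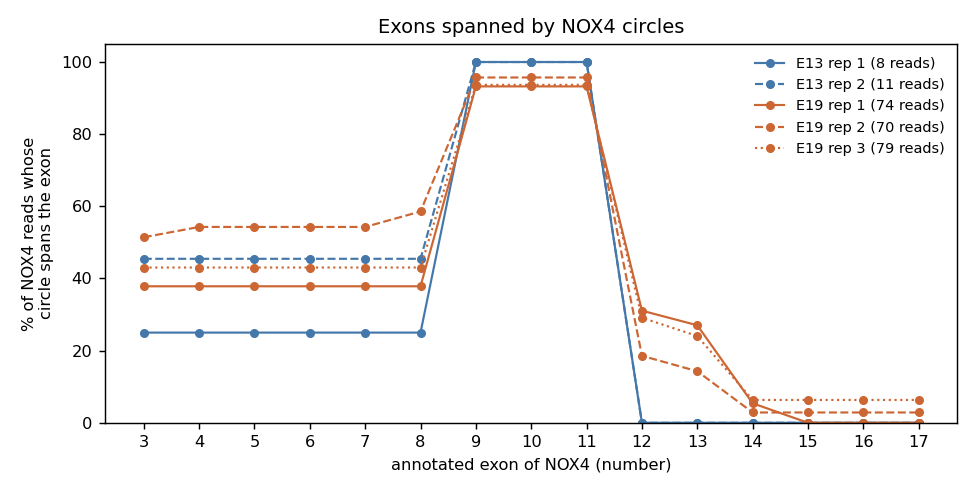
Percent of the NOX4 back-splice reads of a library (vertical axis) whose circle spans each annotated exon (horizontal axis, exon number), one line per library with its number of reads, without E13 replicate 3, which had none. Exons 9 to 11 lie at 100% in both E13 libraries and between 93.2% and 95.7% at E19, and exons 12 and 13 are at 0 in the E13 libraries.

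The share of NOX4 reads in the circle of exons 9 to 11 comes from the same counts that chose the gene, and reads gained by other circles lower it, so it is given as a description. It was 75.0% and 54.5% in the E13 libraries with reads, from 8 and 11 reads (Wilson intervals 40.9 to 92.9% and 28.0 to 78.7%). At E19 it was 37.8%, 27.1% and 31.6%, from 70 to 79 reads. The means were 64.8 ± 14.5% (SD, n = 2) and 32.2 ± 5.37% (n = 3), a difference of 32.6 percentage points with both E13 libraries above all of E19. The exact permutation test of 2 against 3 libraries, made two-sided by doubling the smaller tail, cannot go below p = 0.2. No difference could thus pass, and nothing is read from the test. Read the other way, the NOX4 circles other than that of exons 9 to 11 went from 7 reads to 151. Most of these other circles also span exons 9 to 11. Their pooled rate was 21.1-fold higher (counting interval 10.0 to 53.4), against 5.87-fold for the circle of exons 9 to 11 itself. Both figures describe the same reads as the levels.

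No other oxidase was found among the named genes. NOX1, NOX3, NOX5, CYBB (the phagocyte oxidase), DUOX1 and DUOX2 had no back-splice read under their symbols. Genes were looked up by symbol, and 854 of 2099 Ensembl IDs in the files were not joined to one, so a circle under such an ID would be missed, here and in the lists that follow. Of 18 symbols looked up for oxidase partners and regulators, 15 had no circle, including CYBA. Among the 15 are TKS4 and SH3PXD2B, which name the same gene. The scaffold SH3PXD2A, which in mammals organises oxidase at the cell edge, had 42, 23 and 41 reads at E13 and 50, 116 and 58 at E19. This did not pass (log2 change 1.07, SE 0.416, edgeR adjusted p = 0.206). The list summed to 0.937 to 1.62 RPM at E13 and 1.91 to 4.63 at E19. SH3PXD2A held 106 of its 110 E13 reads and 224 of its 231 E19 reads. This and the following list sums are per mapped read and were not rescaled to back-splice reads. On that scale the median log2 change over all genes tested was 0.24. RAC1, a GTPase that activates other oxidases, had 3 reads at each stage.

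Genes that remove or sense peroxide were looked up in the same way. Over all lists, 67 of the 213 symbols had circles. Of 27 genes for the removal of superoxide and peroxide 4 had any, and only TXNRD2, the mitochondrial thioredoxin reductase, could be tested (33 reads at E13, 14 at E19, log2 change -1.22, edgeR adjusted p = 0.846). Of 18 redox response genes 5 had circles and 3 were tested, and none passed (median log2 change 1.27). They summed to 0.790 to 0.977 RPM at E13 and 1.31 to 2.11 at E19. OXR1, which protects cells from oxidative damage, had 52 reads at E13 and 79 at E19 (log2 change 0.57, edgeR adjusted p = 0.902).

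Of 19 genes of the TGF-beta pathway, 10 had circles and 7 were tested. None passed, and their median log2 change was 0.44 against 0.24 for all genes. TGFBR3, the co-receptor betaglycan, had 93, 87 and 58 reads at E13 and 75, 36 and 57 at E19 (log2 change -0.54, edgeR adjusted p = 0.754). Of 13 hypoxia and angiotensin genes 5 had circles and 1 was tested, and of 11 genes of insulin and peroxide-sensitive growth signalling 5 had circles and all were tested (median log2 change -0.59). None of these passed either.

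Among 11 calcium release genes 3 were tested and 1 passed (median log2 change of the 3 -1.08). RYR3, a calcium release channel found in embryonic muscle, had 1, 5 and 0 reads at E13 and 5, 33 and 24 at E19. In reads E19 replicate 1 was level with E13 replicate 2, and per mapped read it was lower. RYR3 rose by 3.24 on the log2 scale (SE 0.941, edgeR adjusted p = 0.0270). It passed in 2 of 14 alternative settings, with adjusted p from 0.0185 to 0.546 and log2 changes of 2.67 to 5.08 as each library was left out. RYR1, in mammals the main channel of skeletal muscle, had no circle. RYR2 had 17 reads at E13 and 1 at E19, which did not pass (edgeR adjusted p = 0.494).

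Markers of the cells the muscle could hold moved with the stage in part. Circles of the 14 muscle fibre genes summed to 3.66 to 4.77 RPM at E13 and to 5.75 to 12.2 at E19. LDB3 held 284 of the 342 E13 reads and 460 of the 691 E19 reads, and did not pass (edgeR adjusted p = 0.415). Of the 6 fibre genes tested, 1 passed (median log2 change 1.22). DMD, which encodes dystrophin, rose from 9, 17 and 21 reads to 51, 53 and 60 (log2 change 1.75, SE 0.489, edgeR adjusted p = 0.0181), and passed in 6 of 14 alternatives, with adjusted p from 0.0181 to 0.166. Of the leave-out fits it passed only in the one without E13 replicate 3, while its log2 change stayed between 1.45 and 2.00.

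Fat genes summed to 1.02 to 1.69 RPM at E13 and 1.76 to 1.92 at E19, all from EBF1 and EBF2. PPARG, FABP4 and ADIPOQ were at 0.

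The endothelial, mural (smooth muscle and pericyte) and connective tissue lists stand for cell types in which NOX4 is well known. Circles were found for 5 of 13, 4 of 11 and 6 of 15 of their genes, against 67 of 213 over all lists. The 13 endothelial genes summed to 0 to 0.151 RPM at E13 and 0.108 to 0.153 at E19, with PECAM1, CDH5 and TEK at 0. The 11 genes of smooth muscle and pericytes summed to 0.122 to 0.265 and 0.224 to 0.325, with MYH11, RGS5 and TAGLN at 0. The 15 connective tissue genes summed to 0.0814 to 0.862 and 0.383 to 0.723, with COL1A1, COL3A1 and PDGFRA at 0. The 2 of them that were tested went opposite ways. COL1A2 had 0 reads at E13 and 16 at E19 (log2 change 5.40, edgeR adjusted p = 0.321). COL12A1 had 27 and 17 (log2 change -0.63, edgeR adjusted p = 0.958). The 10 myoblast genes summed to 0.0407 to 0.323 and 0.336 to 0.651, from 15 reads at E13 and 36 at E19. This sum was thus higher at E19, as that of the fibre genes was. Of the myoblast genes FGFR4 alone was tested, with 13 and 34 reads (log2 change 1.36, edgeR adjusted p = 0.801). The 9 blood and immune genes had 1 read in all. None of the 7 genes tested in the fat, mural, connective and myoblast lists passed. The part of fibre, fat or other cells in the NOX4 levels was not tested.

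Over all 16 lists 36 genes were tested and 3 were higher (8.33%), DMD and RYR3 among them, against 1.8% of all genes tested, and 0 were lower. The lists were chosen with results of these data known, and no test of the lists as groups was made.

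The 5 genes whose profile over the 6 libraries lay nearest to that of NOX4, of 766 with at least 50 reads, were ENSAPLG00000021170, RAB31, RYR3, EPHB1 and ATP8A2. Nearness was the Euclidean distance between log2 profiles after their means were removed, 2.11 to 2.92 for these against a median of 5.27. They were picked for this pattern, so their values carry no test. ENSAPLG00000021170, which the files do not describe, had 3, 1 and 0 reads at E13 and 12, 21 and 20 at E19. RAB31, a GTPase of membrane traffic, had 13, 18 and 7 and then 56, 72 and 47. EPHB1, a receptor of ephrins, had 16, 6 and 0 and then 19, 21 and 12, so its stages overlap. ATP8A2, a phospholipid flippase, had 12, 10 and 3 and then 18, 42 and 33. All 5 had their lowest value in E13 replicate 3, as NOX4 did.

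**Figure D4:**
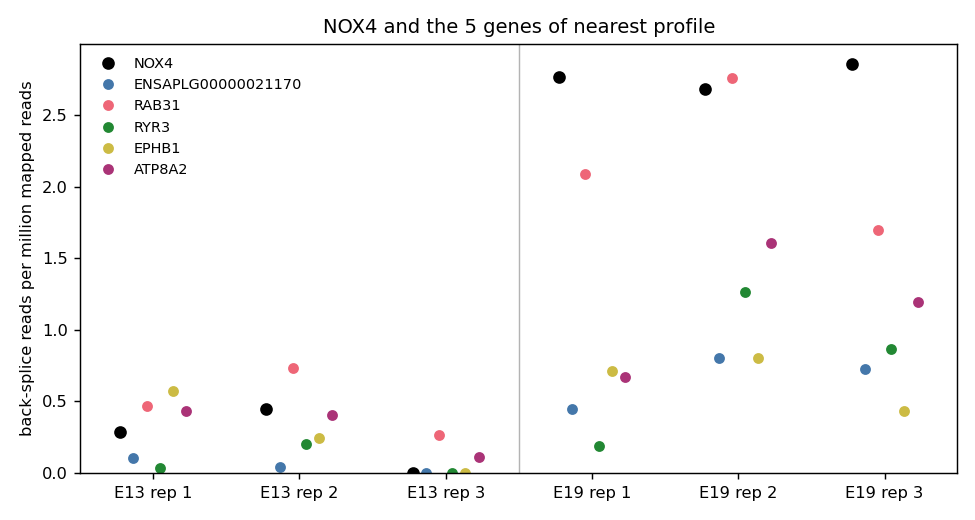
Back-splice reads for every 1000000 mapped reads (vertical axis, linear from 0) of NOX4 and of the 5 genes with the nearest profile, one point per gene and library; the line parts the stages. NOX4 has 74, 70 and 79 reads in the E19 libraries and 8, 11 and 0 at E13, and the points of EPHB1 and of RYR3 overlap between the stages.

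The nearest parental genes with enough reads on the chromosome were far from NOX4 and did not pass the test. FAT3, an atypical cadherin 1148 kb below, had 96, 22 and 155 reads at E13 and 97, 35 and 43 at E19, which did not pass (edgeR adjusted p = 0.567, log2 change -0.65, SE 0.391). Its log2 change was -0.0044 without E13 replicate 3 and -1.23 without E19 replicate 1. NDFIP2, an adaptor of NEDD4 ubiquitin ligases 2396 kb above, had 447 and 521 (log2 change 0.19, SE 0.355, edgeR adjusted p = 0.964), and its sign turned when scaled to the sum of back-splice reads, with DESeq2 and without E19 replicate 3. In the RefSeq annotation of another assembly (IASCAAS_PekinDuck_T2T), TYR, GRM5 and CTSC follow NOX4, and no circle was listed under these symbols.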

How the data were processed

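According to the methods of the study, Cutadapt removed poor reads, Bowtie 2 and TopHat 2 aligned the others to an Ensembl duck genome, and TopHat-Fusion, CIRCexplorer2 and CIRI called the circular RNAs (tool versions: not given in the sources used here). Deposited counts are unnormalized numbers of back-splice reads for each listed circular RNA. The SRPBM signal is the same count divided by the authors by the bases of the library's mapped reads plus its candidate back-splice reads, and served as an alternative. Deposited sheets with the authors' fold changes, p-values and q-values were not used. Mapped reads per library are those the study gives.

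Each junction was taken once, and 1245 of 2099 Ensembl IDs were joined to a symbol by shared junction, transcript or description. Reads were summed per gene. Genes and junctions with at least 10 reads over the 6 libraries were fitted with edgeR 4.0.16 (quasi-likelihood, mapped reads as library size, E19 against E13, no covariate), with Benjamini-Hochberg adjustment over all tested and a threshold of 0.05. The SE is the log2 change divided by the root of the F statistic. The share of 1 circle was set against an exact permutation test. The edgeR fit was tested on simulated counts. Large changes were planted in genes and junctions of at least 20 reads, with the same spread for all. Recovery of changes at fewer reads or at other spreads was not tested. Alternatives changed the library size, the tool (DESeq2 1.42.0), the filter, the libraries, the joining of listings, the count table and the pairing. The numbers of E13 and E19 libraries come from their titles.

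The members and the lists were chosen with earlier results of these data known. The values of 1 list are not reported here. All NOX4 circles are given, with values per library for those of at least 10 reads. Of a list at most 4 genes were to be named, passing genes first and then by reads, and fewer are named; RAC1, RYR2 and genes at 0 were named after their values were seen. The genes of nearest profile had at least 50 reads and log2 values with 0.05 added. Starts in the list with exon numbers lie 1 base below those of the other list, and sizes are printed as deposited, where in all 626 circles of 1 exon in that list the size is the end minus the start plus 1.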

Additional observations from a re-analysis of the deposited data

How the results depend on the processing

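The log2 change of the summed NOX4 level stayed between 2.90 and 4.20 in 16 alternatives. It was 2.90 without E13 replicate 3, 4.20 without E13 replicate 2 and 4.16 from the rows under the symbol alone. The share of reads in the circle of exons 9 to 11 differed by 22.3 to 42.8 percentage points over 9 alternatives, of which 3 leave its reads as they are; both ends rest on 1 E13 library, so they say nothing of stability. The number of genes past the threshold, 50, was 32 with at least 20 reads, and 13 to 46 with each library left out. The number of junctions, 42, was 73 with DESeq2, 15 with at least 20 reads, and 2 to 29 with each library left out. The share of calls that were higher, 66.0% for genes, was 42.2% with total back-splice reads. The log2 change of NDFIP2, 0.19, was -0.086 with total back-splice reads, -0.0066 with DESeq2 and -0.016 without E19 replicate 3, and -0.016 to 0.37 with each library left out; the cause was not tested. Library numbers did not pair the stages: same-numbered libraries deviated with correlations of -0.071 to -0.040, and 0 of 3 E13 libraries correlated best with its own number. With the number as a block, 29 genes and 35 junctions passed, and the NOX4 change was 3.70. The depth limit is the 19 NOX4 reads of E13, of which 0 are in replicate 3, so a circle with a small share would not be seen there.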
